A study of Sorghum bicolor with 12 samples.

Results

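Roots of watered sorghum plants (Sorghum bicolor) of the line NIL-bri1-72 were compared with roots of watered plants of the line NIL-WT-72 by RNA sequencing. NIL-bri1-72 carries a base change in the part of the brassinosteroid receptor SbBRI1 that lies outside the cell, and NIL-WT-72 is its counterpart that lacks the change. Both are BC2F3 plants from a family mutagenized with EMS, a chemical that causes base changes, and the series treats them as near-isogenic. The comparison uses 6 of the 12 libraries of the series, 3 biological replicates of each line, all from mature plants in the control condition labelled water. The other 6 libraries, from the same lines held at 30% of field capacity, give values from other plants. All 20818 gene identifiers of the deposited count table were measured in every library. Each line stands for 1 genotype, so the receptor change and any other difference between the lines cannot be told apart.

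Brassinosteroids are plant steroid hormones that promote cell expansion and cell division and shape the development of vascular tissue. In Arabidopsis, BRI1 is a receptor kinase at the cell surface that binds the hormone together with a co-receptor. Its activation switches off a kinase that otherwise keeps the transcription factors BES1 and BZR1 inactive, and these factors then raise or lower their target genes in the nucleus. The watered comparison asks which root transcripts differ between a line with an altered receptor and its wild-type counterpart before water becomes limiting.

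The count table gives identifiers without names, and 0 of the 20818 identifiers matched the RefSeq gene table of sorghum used here. The receptor gene, its pathway, phenylpropanoid genes and markers of root cell types are therefore not analysed here, the root label could not be set against marker genes, and no sequence is shown. Genes are given by identifier. Chromosome and order are read from the identifier itself (chromosome before the letter G, order after it), a convention that could not be tested here for lack of a genome.

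Transcript levels in watered NIL-bri1-72 and NIL-WT-72 roots were close for most genes of the deposited table. That table holds no count of 0, so genes silent in a line are not among them. The fitted fold change was smaller than 1.25-fold in either direction for 16757 genes, 80.5% of the 20818. The middle 50% of genes lay between log2 fold changes of -0.13 and 0.12, and the median was -0.01. At the tails, 5% of genes lay below -0.55 and 5% above 0.45. No gene passed the test: 0 of 20818 genes had a Benjamini-Hochberg adjusted p below 0.05 in edgeR's quasi-likelihood test, which is 0% of those tested, and the lowest adjusted p was 0.888. Where no gene differs, about 5% of genes are expected to have an unadjusted p below 0.05. Before adjustment, 1091 genes had a p below 0.05, which is 5.24%. Of these, 586 were higher in NIL-bri1-72 (2.81%) and 505 were lower (2.43%). By limma voom 0 genes passed and 931 had an unadjusted p below 0.05. DESeq2 called 4 genes of the 20769 that it gave an adjusted p, 0.0193%, and 1240 genes had an unadjusted p below 0.05 (5.97%).

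Taken gene by gene, the intervals of this fit bound the size of the difference for most genes. They are not adjusted over all genes. For each gene they use 1 estimate of the spread over all 12 libraries, although the median spread between replicates differed between lines and regimes. Without NIL-WT-72 water replicate 1, log2 fold changes correlated at 0.662 with those from all libraries. The median standard error of a log2 fold change was 0.18, and the median 95% interval reached 0.39 to either side. That interval stayed within a 2-fold difference in either direction for 16951 genes (81.4%) and within a 1.5-fold difference for 11565 genes (55.6%). For the remaining genes the interval reached such a size, and none of them passed edgeR's adjusted threshold. In bulk tissue, fewer cells that express a gene and less of its RNA per cell cannot be told apart.

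Precision followed abundance. In the lowest 25% of genes by abundance, between 0.546 and 5.86 CPM (read counts scaled to a common library total, with TMM factors), log2 fold changes had a standard deviation of 0.46 and 57.4% of intervals stayed within 2-fold. In the highest 25%, above 49.3 CPM, the standard deviation was 0.20 and 94.7% of intervals stayed within 2-fold. An unadjusted p below 0.05 was reached by 6.78% of genes of those lowest genes and by 3.19% of those highest ones. The 100 most abundant genes, each at 719 CPM or more over the watered libraries, had log2 fold changes between -0.40 and 0.67. None of these 100 was 2-fold apart, and the interval stayed within 2-fold for 97 of them. The 3 of them with an unadjusted p below 0.05 were all higher in NIL-bri1-72.

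**Figure D1:**
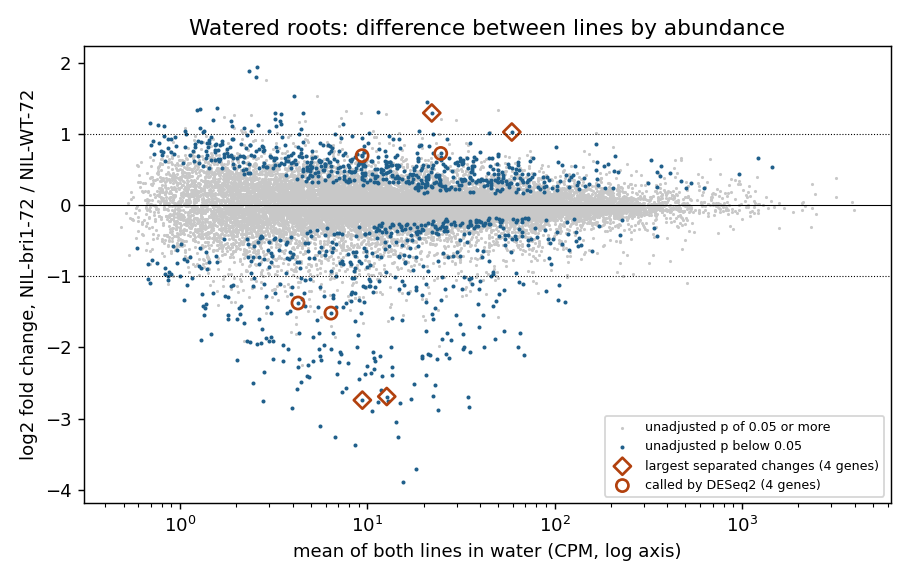
Fitted log2 fold change of NIL-bri1-72 over NIL-WT-72 in water against the mean CPM of both lines (log axis), one point per gene, for 20818 genes. Dotted lines mark 2-fold differences. The points widen toward low abundance and reach further down than up, with 351 genes at least 2-fold lower and 67 at least 2-fold higher in NIL-bri1-72.

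The libraries of the wild-type line were further apart than those of the mutant line. Between replicates of watered NIL-bri1-72, log2 CPM values correlated with Pearson r of 0.982 to 0.988 across genes. Between replicates of watered NIL-WT-72, r was 0.950 to 0.978, lowest between replicates 1 and 3. The root-mean-square deviation from the group mean was 0.183 to 0.233 log2 units for the NIL-bri1-72 libraries and 0.265 to 0.396 for the NIL-WT-72 libraries, highest in NIL-WT-72 replicate 1. The median standard deviation of a gene between replicates was 0.132 log2 units in NIL-bri1-72 and 0.222 in NIL-WT-72, and it was the larger in NIL-WT-72 for 14888 genes (71.5%). For 7189 genes (34.5%) the whole range of NIL-bri1-72 fell inside that of NIL-WT-72, and for 1773 genes (8.52%) it was the other way round. Library totals were 24406967 to 33296273 reads in NIL-bri1-72 and 18640601 to 26385468 reads in NIL-WT-72. The deviation was 0.396 in NIL-WT-72 replicate 1, which had 26385468 reads, and 0.265 in NIL-WT-72 replicate 2, which had 18640601. The part that library depth plays in this spread was not tested.

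NIL-WT-72 replicates 1 and 3 were most often the extreme libraries. Replicate 1 was the highest of the 6 watered libraries for 25.03% of genes and the lowest for 26.3%, and replicate 3 was the highest for 26.9% and the lowest for 27.0%. Each of the other 4 libraries was the highest for 9.60% to 15.4% of genes. In 4609 genes (22.1%) these same 2 wild-type libraries stood at the opposite ends of all 6. Without NIL-WT-72 replicate 1 the median standard deviation in NIL-WT-72 was 0.161 log2 units. It was 0.152 without replicate 3 and 0.226 without replicate 2. These come from 2 libraries each, which tend to give a smaller median, so they cannot be set directly beside the 0.222 from all 3.

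**Figure D2:**
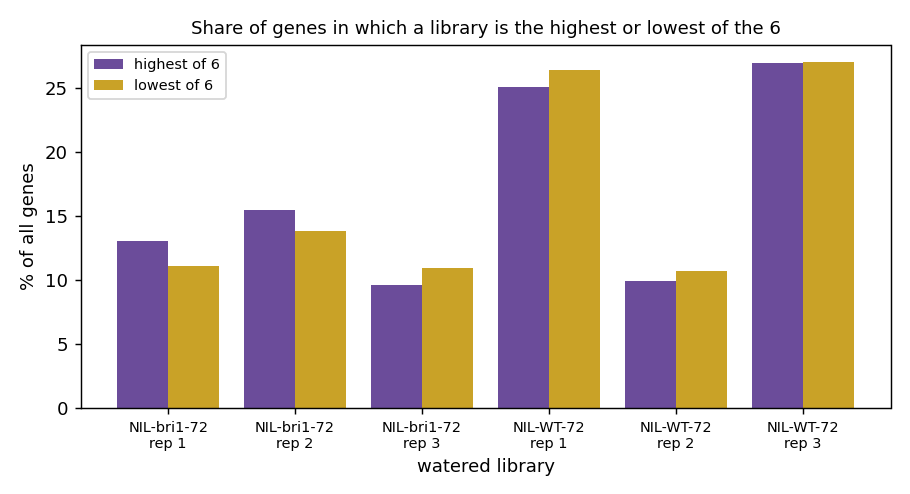
Percent of the 20818 genes for which each watered library had the highest or the lowest log2 CPM of the 6. NIL-WT-72 replicates 1 and 3 each hold from 25.03% to 27.005% of both ends, and the other libraries hold between 9.60% and 15.4% of each end.

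Genes at least 2-fold apart were mostly lower in NIL-bri1-72. They numbered 418 of 20818 (2.01%), of which 351 were lower and 67 were higher. The lower genes had a median abundance of 7.02 CPM and the higher genes of 3.17 CPM, against 18.001 CPM over all genes. The lines were fully separated for 65 of the 351 lower genes (18.5%) and for 34 of the 67 higher genes (50.7%). Over all genes they were separated for 10.4%, with NIL-bri1-72 higher for 6.09% and lower for 4.36%. A random order of 3 libraries against 3 separates them fully, in either direction, with a probability of 0.1. The lower genes were thus more numerous but separated in a smaller share of cases than the higher genes.

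Much of the excess of lower genes went with NIL-WT-72 replicate 1, and a smaller excess remained without it. That library was the highest of the 6 for 264 of the 351 lower genes (75.2%), replicate 3 for 75 and replicate 2 for 12. For 142 of the 351 it was the only wild-type library above all 3 NIL-bri1-72 libraries. With it left out, 89 of the 351 genes stayed at least 2-fold lower, 133 changed sign, and the median log2 fold change of the 351 was -0.19 in place of -1.34. With any other single watered library left out, between 288 and 340 of the 351 stayed at least 2-fold lower. Of the 67 higher genes, 37 stayed at least 2-fold higher without NIL-WT-72 replicate 1, and 32 without NIL-bri1-72 replicate 1, the library that was highest for 34 of them. Over all genes, 170 were then at least 2-fold lower and 114 at least 2-fold higher without NIL-WT-72 replicate 1. Leaving out NIL-WT-72 replicate 2 gave 539 lower and 195 higher, leaving out NIL-bri1-72 replicate 3 gave 447 lower and 146 higher, and the remaining 3 libraries gave 359 to 425 lower and 51 to 66 higher.

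**Figure D3:**
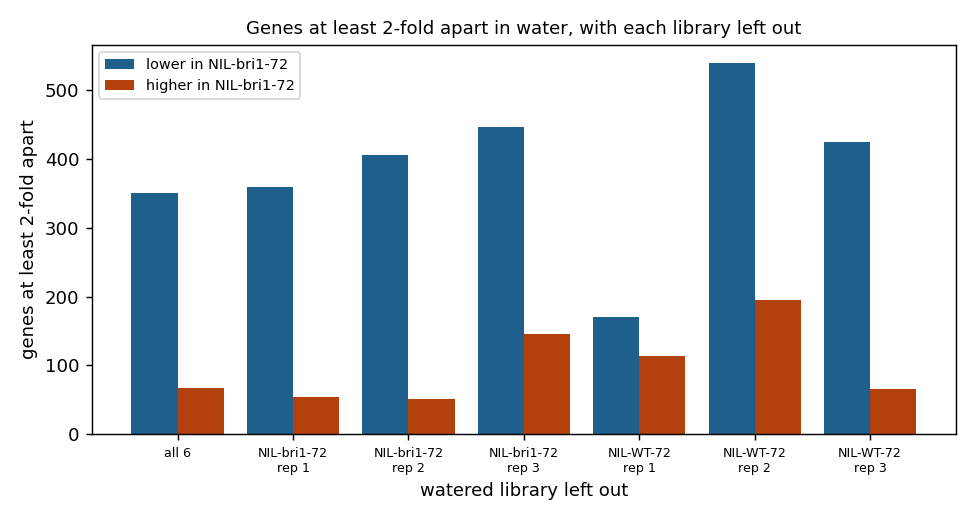
Number of genes at least 2-fold lower or higher in NIL-bri1-72 than in NIL-WT-72 in water, from all 6 watered libraries and with each of them left out. Lower genes outnumber higher ones in every case, and the gap is narrowest without NIL-WT-72 replicate 1, at 170 lower and 114 higher.

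The largest separated differences were described next. For this, genes needed an unadjusted p below 0.05, at least 10 CPM on average in 1 of the lines, and replicates that were fully separated between the lines. There were 269 such genes higher in NIL-bri1-72, with a median log2 fold change of 0.43, and 164 lower, with a median of -0.37. At least 2-fold differences were few among them, 4 higher and 25 lower. The 2 with the largest log2 fold change in each direction are named, and none of these 4 passed the edgeR or the DESeq2 threshold over the 12 libraries.

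Sobic.001G225500, on chromosome 1, was at 43.3, 31.8 and 19.1 CPM in NIL-bri1-72 and at 4.62, 18.6 and 15.3 CPM in NIL-WT-72. The lowest mutant library and the highest wild-type library nearly met, and NIL-WT-72 replicate 1 lay far below the other libraries. The log2 fold change was 1.30 (SE 0.45, 95% interval from 0.30 to 2.29), and it was 0.89 without NIL-WT-72 replicate 1 and 0.99 without NIL-bri1-72 replicate 1.

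Sobic.003G375800, on chromosome 3, was at 79.4, 101 and 57.8 CPM in NIL-bri1-72 and at 39.3, 50.1 and 27.4 CPM in NIL-WT-72. All 3 mutant libraries were above all 3 wild-type libraries, although the range within each line was wider than the gap between the lowest mutant and the highest wild-type library. Its log2 fold change was 1.03 (SE 0.31, 95% interval from 0.36 to 1.70). It was 0.82 without NIL-bri1-72 replicate 2 and 1.25 without NIL-WT-72 replicate 2, the lowest and highest values with 1 library left out.

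Sobic.003G099900, also on chromosome 3, was at 1.15, 1.44 and 4.85 CPM in NIL-bri1-72 and at 14.9, 7.40 and 26.8 CPM in NIL-WT-72. The wild-type values differed among themselves by more than the highest mutant library and the lowest wild-type library did. The log2 fold change was -2.74 (SE 0.70, 95% interval from -4.29 to -1.20), the largest decrease under the rule, and it ranged from -3.67 to -2.20 with 1 library left out. DESeq2 gave an adjusted p of 0.0647 over 12 libraries and of 0.0180 over the 6 watered ones.

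Sobic.004G064500, on chromosome 4, was at 3.81, 2.84 and 3.59 CPM in NIL-bri1-72 and at 57.3, 4.60 and 4.17 CPM in NIL-WT-72. The lines did not overlap, but 1 wild-type library was more than 10 times as high as any other library. The log2 fold change of -2.69 (SE 0.86) became -0.36 without NIL-WT-72 replicate 1, with an unadjusted edgeR p of 0.328. DESeq2 gave this gene no p-value over the 12 or over the 6 watered libraries.

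The 4 genes that DESeq2 called over all 12 libraries were 2 higher and 2 lower in NIL-bri1-72. They were chosen by their values in these libraries, and they also had the 4 lowest edgeR p-values of the comparison, each with an edgeR adjusted p of 0.888. Sobic.006G209000, on chromosome 6, rose by this test. It was at 30.8, 30.3 and 31.3 CPM in NIL-bri1-72 and at 15.6, 22.0 and 18.2 CPM in NIL-WT-72. The mutant libraries were nearly equal and each lay well above the wild-type ones. Its DESeq2 log2 fold change was 0.72 (SE 0.15, DESeq2 adjusted p = 0.0116).

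Sobic.010G061900, on chromosome 10, also rose by DESeq2 and was at 12.2, 12.3 and 10.3 CPM in NIL-bri1-72 and at 6.25, 8.41 and 6.87 CPM in NIL-WT-72. The lines were separated by about the range within a line. The DESeq2 log2 fold change was 0.70 (SE 0.15, DESeq2 adjusted p = 0.0205). Over the 6 watered libraries alone the DESeq2 adjusted p was 0.105, so this call depended on the libraries in the fit.

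Sobic.007G154300, on chromosome 7, fell by DESeq2 and was at 1.95, 2.24 and 2.95 CPM in NIL-bri1-72 and at 6.68, 7.08 and 4.72 CPM in NIL-WT-72. These were 66, 56 and 73 reads against 172, 134 and 110 reads. The 3 mutant libraries stayed well below the lowest wild-type library. By DESeq2 the log2 fold change was -1.39 with an SE of 0.25, and its adjusted p of 0.00103 was the lowest of the comparison. The gene was also called without NIL-WT-72 replicate 1, at -1.32 (DESeq2 adjusted p = 0.0281).

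Sobic.002G261000, on chromosome 2, also fell by DESeq2 and was at 2.33, 2.84 and 4.81 CPM in NIL-bri1-72 and at 9.63, 8.46 and 10.3 CPM in NIL-WT-72. All 3 wild-type libraries were close together and above the mutant ones. The DESeq2 log2 fold change was -1.53 (SE 0.32, DESeq2 adjusted p = 0.0116). Without NIL-WT-72 replicate 1 the DESeq2 adjusted p was 0.0778 for Sobic.002G261000, 0.161 for Sobic.006G209000 and 0.285 for Sobic.010G061900, so these calls were lost. DESeq2 then called 4 genes, of which 1 was among the 4 named here. With only the 6 watered libraries it called 18 genes, 6 higher and 12 lower, which included 3 of the 4 and left out Sobic.010G061900.

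**Figure D4:**
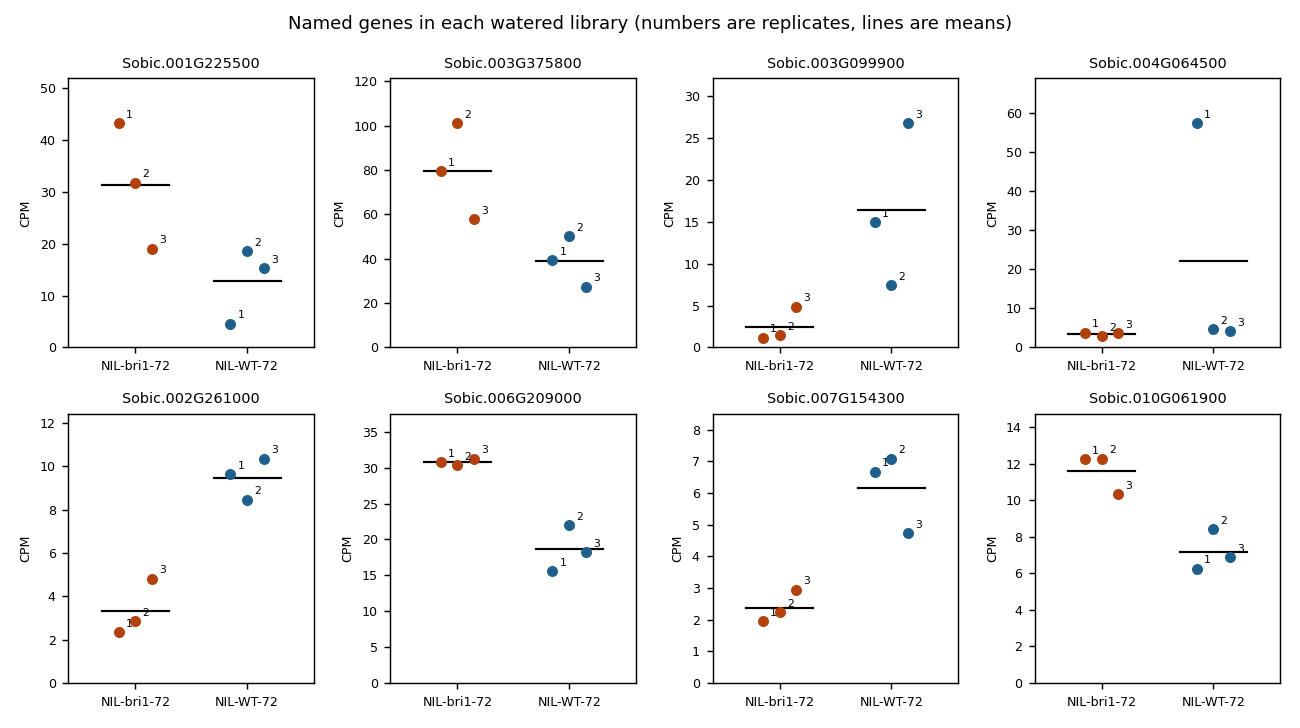
CPM of the 8 named genes in each watered library, NIL-bri1-72 left and NIL-WT-72 right, with replicate numbers beside the points and means as lines. The upper row holds the largest separated differences and the lower row the genes called by DESeq2. In Sobic.004G064500 the wild-type mean rests on replicate 1 at 57.3 CPM, and in each gene of the lower row the lines do not overlap.

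Some neighbouring genes differed in the same direction. The log2 fold changes of adjacent listed genes correlated with Pearson r = 0.117 over 20792 pairs, a description across genes that share the same libraries. The gene listed after a 2-fold lower gene was also 2-fold lower in 36 of 351 cases (10.3%), where 1.69% of all placed genes were. NIL-WT-72 replicate 1 was the highest library for 264 of these 351. For 2-fold higher genes it was 2 of 67 cases (2.99%, against 0.322%). Among separated genes, the next gene was separated the same way in 8.60% of cases for higher genes, against 6.09% of placed genes. For lower separated genes it was 5.18%, against 4.365%. Among genes with an unadjusted p below 0.05, the next gene had such a p in the same direction in 30 of 586 cases for higher genes (5.12%, against 2.82% of placed genes) and in 24 of 505 cases for lower genes (4.75%, against 2.43%). Adjacent genes can be similar copies, and how the authors counted reads that match several genes is not stated in the labels. The part of shared reads in this was not tested.

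There were 7 runs of 3 or more adjacent listed genes with an unadjusted p below 0.05 in 1 direction, 3 of them higher in NIL-bri1-72 and 4 lower. Runs that were higher had small and even differences, and replicates were separated for every gene in them. Of all genes with such a p, 460 of the 586 higher ones and 263 of the 505 lower ones were separated. The run of 4 that starts at Sobic.010G061900 had log2 fold changes between 0.43 and 0.70. The other higher runs, of 3 genes each on chromosomes 1 and 3, lay between 0.48 and 0.61 and between 0.50 and 0.52. The lower runs had larger differences. In those on chromosomes 1 and 7 the replicates overlapped for every gene, and in the run of 4 on chromosome 2 that starts at Sobic.002G388800, named after its values were seen, 1 gene was separated. In drought 0 of the 4 genes of the run on chromosome 7 had the sign they had in water, whereas all genes of the other 6 runs did. Of all genes with such a p in water, 77.2% had the same sign in drought.

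The remaining lower run, of 3 genes, starts at Sobic.002G261000, and all 3 were separated. The gene listed next to it was at 3.60, 2.16 and 5.21 CPM in NIL-bri1-72 and at 35.8, 11.4 and 7.0 CPM in NIL-WT-72, a log2 fold change of -2.31 (SE 0.60). The gene after that was at 0.680, 0.440 and 2.30 CPM in NIL-bri1-72 and at 6.87, 3.54 and 2.49 CPM in NIL-WT-72, a log2 fold change of -1.93 (SE 0.60). In both, NIL-WT-72 replicate 1 was the highest library. Genes on either side of the run had an unadjusted edgeR p of 0.360 before it and 0.146 after it. The gene listed before Sobic.002G261000 averaged 71.0 ± 1.42 CPM in NIL-bri1-72, against 66.3 ± 9.80 CPM in NIL-WT-72 (SD, n = 3 each). The gene listed after the run averaged 18.9 ± 4.05 CPM in NIL-bri1-72, against 25.02 ± 2.18 CPM in NIL-WT-72 (SD, n = 3 each), and its log2 fold change of -0.41 had a 95% interval from -0.98 to 0.17.

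No chromosome stood far from the others. The share of genes with an unadjusted p below 0.05 was between 4.57% on chromosome 2 and 6.06% on chromosome 7, around the 5.24% over all genes. The share of genes whose replicates did not overlap was between 9.17% on chromosome 9 and 12.7% on chromosome 5, around the 10.4% over all genes. Median log2 fold changes of the 10 chromosomes lay between -0.02 and 0.00. In 412 consecutive blocks of 50 listed genes, the share whose replicates did not overlap had a median of 10% and ran up to 26%, which 3 blocks reached. No block had a median log2 fold change below -0.13 or above 0.08.

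The droughted plants of the same lines gave fold changes from libraries that do not enter the fold changes in water, while both regimes share 1 estimate of the spread. In drought 0 of 20818 genes passed in edgeR (0%), and 515 had an unadjusted p below 0.05 (2.47%). The lines were fully separated for 6.69% of genes. The sign of the difference between the lines was the same in drought as in water for 842 of the 1091 genes with an unadjusted p below 0.05 in water (77.2%), and for 61.5% of all genes. With each regime fitted on its own 6 libraries, a setting added after seeing the data, the shares were 843 of 1049 such genes (80.4%) and 61.4% of all genes. In the fit over 12 libraries, without NIL-WT-72 drought replicate 3 these shares were 63.4% and 53.7%, and without any other single droughted library they were 70.6% to 80.6% and 56.0% to 65.9%. The set of 1091 genes itself depended on the watered libraries. With 1 of them left out, 426 to 855 of the 1091 again had such a p in water, and 490 did without NIL-WT-72 water replicate 1. By voom with quality weights it was 675. An unadjusted p below 0.05 in both regimes was reached by 82 genes, 7.52% of the 1091 and 15.9% of the 515, and all 82 had the same sign in both. Of these, 52 were also separated the same way in both regimes, 33 higher and 19 lower in NIL-bri1-72. Their median absolute log2 fold change was 0.52 in water and 0.50 in drought. The 52 were chosen by their values in both regimes, which by itself favours similar sizes. Over all 20818 genes, 108 were separated as higher in both regimes and 59 as lower. The 108 were 13.8% of the 780 genes separated as higher in drought, where 6.09% of all genes were separated as higher in water. The 59 were 9.62% of the 613 separated as lower in drought, against 4.36% of all genes. Separated the opposite way in drought were 13 of the 1267 genes higher in water and 9 of the 908 lower.

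Large differences in water shrank in drought. Of the 351 genes at least 2-fold lower in water, 258 were lower in drought (73.5%), but 36 were at least 2-fold lower there, and their median log2 fold change was -0.24. Of the 67 at least 2-fold higher in water, 54 were higher in drought (80.6%), 6 of them at least 2-fold, with a median of 0.45. In drought, 72 genes in all were at least 2-fold lower and 18 at least 2-fold higher. These sets were chosen for large values in water, which by itself favours smaller values in other libraries.

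Of the 8 named genes, Sobic.007G154300 differed most alike in both regimes. It was at 5.09, 4.39 and 5.43 CPM in droughted NIL-bri1-72 and at 9.63, 9.64 and 13.98 CPM in droughted NIL-WT-72, again without overlap, with a log2 fold change of -1.16 by edgeR. Sobic.002G261000 was at 4.07, 5.79 and 7.02 CPM in droughted NIL-bri1-72 and at 7.30, 9.96 and 12.9 CPM in droughted NIL-WT-72, and Sobic.010G061900 was at 11.5, 10.3 and 11.0 CPM in droughted NIL-bri1-72 and at 9.11, 8.98 and 7.64 CPM in droughted NIL-WT-72. Both kept their direction without overlap, at edgeR log2 fold changes of -0.83 and 0.35. Sobic.006G209000 did not keep its difference. It was at 29.5, 27.8 and 36.2 CPM in droughted NIL-bri1-72 and at 34.0, 32.7 and 28.0 CPM in droughted NIL-WT-72, overlapping throughout, with an edgeR log2 fold change of -0.02. The interaction, which tests whether the line difference depends on the regime, had an unadjusted edgeR p of 0.00294 for this gene and an adjusted p of 1.00 over all genes.

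The 4 genes with the largest separated differences in water had the same sign in drought, but replicates overlapped in each of them. Their log2 fold changes in drought were 0.52 for Sobic.001G225500, 0.56 for Sobic.003G375800, -1.55 for Sobic.003G099900 and -0.56 for Sobic.004G064500. For Sobic.003G099900 the droughted values were 3.73, 6.50 and 8.47 CPM in NIL-bri1-72, against 5.98, 22.6 and 26.3 CPM in NIL-WT-72, where 1 wild-type library fell among the mutant ones. The same 4 signs were found with each droughted library left out in turn.

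**Figure D5:**
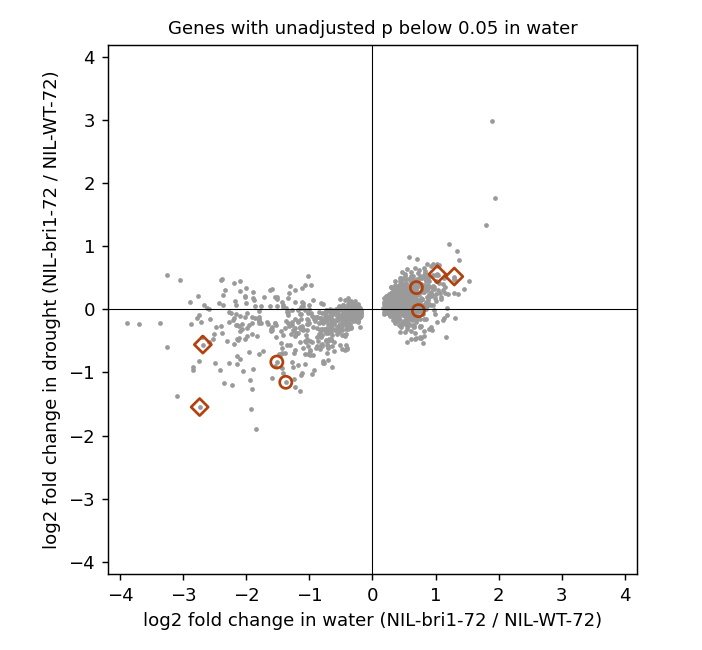
Log2 fold change of NIL-bri1-72 over NIL-WT-72 in drought (y) against that in water (x) for the 1091 genes with an unadjusted p below 0.05 in water, with the largest separated differences as diamonds and the genes called by DESeq2 as circles. Of the 1091 genes 842 share their sign in both regimes, and values in drought are mostly nearer to 0, above all for genes far to the left.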

How the data were processed

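The authors deposited raw read counts for 20818 gene identifiers in 12 root libraries, 3 for each of 2 lines and 2 water regimes. Per the labels' protocols, libraries came from a stranded mRNA kit and were sequenced as paired reads of 100 bp. The submitters' processing notes name featureCounts 1.6.2 and HISAT2 2.1.0, besides Trimmomatic 0.38 and FastQC 0.11.2. For their parameters, the genome build and the strand setting the sources used here hold no entry, so overlapping and antisense genes may share reads. The smallest deposited count in a library was 8 to 13, and none was 0, so genes silent in a line are not analysed here.

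The test was that of edgeR 4.0.16 (R 4.3.3): filterByExpr (which kept all 20818 genes), TMM scaling, and a quasi-likelihood fit of 4 group means over 12 libraries without a replicate block, with Benjamini-Hochberg adjustment over all genes and a threshold of 0.05. The biological coefficient of variation was 0.209. CPM values are TMM-scaled, and log2 CPM values use a prior count of 2. The standard error of a log2 fold change is its size divided by the square root of F, and intervals are 95%. DESeq2 1.42.0 and limma 3.58.1 were alternatives. The fitting steps were also run on simulated counts with known fold changes. These were drawn with the same spread in all 4 groups and with no outlying library. They therefore do not cover the unequal spread seen here. Groups and replicate numbers come from the sample titles.

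Named genes followed a rule: the 2 largest log2 fold changes per direction among separated genes with an unadjusted p below 0.05 and at least 10 CPM, plus the genes called by DESeq2. Of the 38 gene lists and 6 marker lists written as product descriptions, none could be applied. The comparison, the rule and the lists were chosen with earlier results of these data known. Runs of neighbours, blocks, the comparison of replicate spread and the account of the 2-fold genes were added after the values had been seen.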

Additional observations from a re-analysis of the deposited data

How the results depend on the processing

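The edgeR count of 0 genes stayed at 0 under RLE, upper-quartile and library-total scaling, with at least 1 CPM in 3 libraries and with robust estimation. It also stayed at 0 with only the 6 watered libraries, and with each of the 12 libraries left out (lowest 0, highest 0). A run without a filter was the same fit, because filterByExpr had kept every gene. By limma voom the count was 0 with and without quality weights. DESeq2 called 4 genes over 12 libraries, 18 over the 6 watered ones and 4 without NIL-WT-72 water replicate 1. This last fit and voom with weights on 6 libraries were chosen after seeing the data. The lowest adjusted p of the fits other than DESeq2 ranged from 0.293, by voom with quality weights, to 1.00. All 8 named genes kept their direction under every alternative run. The replicate numbers were not taken as a pairing. Deviations of same-numbered libraries of the lines correlated at -0.0505, 0.0853 and 0.0567, and those of other-numbered libraries at -0.102 to 0.0356. By this measure the libraries numbered 1 were closer to other numbers, and those numbered 2 and 3 were closest to the same number. With the replicate block 0 genes passed, over 12 libraries or within 6. Fully separated genes numbered 1324 higher and 761 lower on library totals, and 1207 higher and 977 lower with RLE, against 1267 higher and 908 lower with TMM. The share was 24.1% without NIL-WT-72 water replicate 1, where 2 libraries against 3 separate more easily, so it cannot be set beside the 10.4%. The standard deviation of log2 differences over genes was 0.294, and 0.299 and 0.285 with prior counts of 0.5 and 5. Precision was lowest for genes below 5.86 CPM, where 57.4% of 95% intervals stayed within 2-fold, against 82.4% between 5.86 and 17.998 CPM. The shares of counting error and of spread between plants in this were not tested.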

Other observations

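The spread between replicates changed sides with the water regime. In water the standard deviation of log2 CPM between replicates was the larger in NIL-WT-72 for 71.5% of genes, and in drought for 30.1%. The median standard deviation in drought was 0.224 log2 units in NIL-bri1-72 and 0.145 in NIL-WT-72. In drought the range of NIL-WT-72 fell inside that of NIL-bri1-72 for 36.3% of genes, and the reverse held for 9.90%. In water, the share of genes with the larger spread in NIL-WT-72 was 56.8% without NIL-WT-72 replicate 1. It was 55.3% without replicate 3 and 67.2% without replicate 2. These 3 shares set 2 wild-type libraries against 3 mutant ones, so they cannot be set directly beside the 71.5%. The other values describe 3 libraries per group, and none of them was tested.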
